A study of Mus musculus with 34 samples.

Results

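A total of 978 H3K27ac regions carried a called peak in all 4 control libraries and in none of the 4 libraries of growth-restricted animals. They were chosen by that pattern of calls: the peaks of the 8 H3K27ac lists were merged wherever they overlapped by at least 1 bp, which gave 79769 regions, and 1.23% of these fitted the pattern. The loss of H3K27ac calls is therefore how the regions were picked and not a result, and no test is given for it. By the same count 23896 regions were called in all 8 libraries and 125 only in the 4 libraries of the other group.

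The series profiled histone marks in microglia of the mouse hippocampus by ULI-NChIP-seq, chromatin immunoprecipitation of native chromatin for small numbers of cells. Control animals (Ctrl) were compared with animals labelled FGR, in a series on intrauterine growth restriction, at 3 weeks after birth for replicates 1 to 3, while the labels of replicate 4 give no age. All animals of both groups carried 1 copy of the reporter, Tmem119-tdTomato+/-, in which the microglial gene Tmem119 drives a red fluorescent protein. H3K27ac, H3K9ac, H3K4me3 and H3K9me3 were each measured in 4 Ctrl and 4 FGR libraries. How growth was restricted, and whether a library came from 1 animal or a pool, is not given in the labels, so every p-value below speaks of how these libraries vary and may reflect technical variation only.

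H3K27ac is an acetylation of histone H3 found at active promoters and enhancers, the distal elements that raise transcription of a gene. H3K9ac marks much the same elements, H3K4me3 is strongest at the start of active genes, and H3K9me3 marks silent heterochromatin. Microglia are the resident macrophages of the brain, and TGF-beta signalling and factors such as Mef2c belong to the programme that keeps them in their resting state.

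The labels of the cells and of the marks were checked on the lists. Of 28 homeostatic microglia genes, 28 had an H3K27ac peak within 1 kb of a gene end in each Ctrl library and 27 to 28 in the FGR libraries, while of 16 neuronal genes 0 had one in any library. In the Ctrl libraries 3 to 4 of 12 astrocyte, 3 of 13 oligodendrocyte, 2 to 3 of 12 endothelial and mural, 4 to 6 of 12 border-associated macrophage and 2 of 12 lymphocyte and neutrophil genes had one. In FGR these were 2 to 3, 3, 2 to 3, 4 to 7 and 1 to 3. Ctrl and FGR H3K27ac libraries differed in depth. Depth is known only as the lowest local background that could be solved from the lists, 2.39 to 2.75 in Ctrl and 0.621 to 0.767 in FGR. The median Ctrl peak was 825 to 920 bp wide, in lists of 45932 to 50068 peaks, and the median FGR peak 314 to 365 bp, in lists of 53390 to 78063. Group and background cannot be told apart, because no library of one group reached the range of the other.

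The FGR libraries labelled H3K4me3 went in part against their label. Across the 79769 regions their covered length correlated with Ctrl H3K9ac libraries at a mean r of 0.887 and with Ctrl H3K4me3 libraries at 0.794 (16 library pairs each, across regions, which are not independent). FGR libraries labelled H3K9ac had 0.822 with Ctrl H3K9ac and 0.673 with Ctrl H3K4me3. Over the 978 regions alone the FGR H3K4me3 libraries stood at 0.705 and 0.715, and the FGR H3K9ac libraries at 0.59 and 0.631. Both marks are reported under the deposited labels. With the 2 FGR labels exchanged, 5 of the 16 H3K9ac calls and 14 of the 23 H3K4me3 calls at regions picked for naming were kept. Each named call that was not kept is given as such beside its values.

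Promoter sequence was available for few of the regions. Whole RefSeq windows of 250 bases before to 50 bases after a transcription start (GRCm38.p6) lay inside 20 of the 978 regions, giving 23 windows of 21 genes. The 4 windows that lie inside one of the 12 strongest regions are shown, because these regions carried H3K9ac in all 8 libraries although no FGR library had an H3K27ac peak there. Capitals mark each CG dinucleotide, on the strand of the gene. They belong to Slc37a3 (chr6:39377386-39377685, minus strand), Pigs (chr11:78328172-78328471, plus strand), Ciart (chr3:95882179-95882478, minus strand) and Gm14963, a transcript that starts inside the Ehd1 region (chr19:6276529-6276828, minus strand). The last window, of Gm52920 (chr6:134186464-134186763, minus strand), was picked after its values were seen, as the one with the fewest CG pairs, 3.
Slc37a3: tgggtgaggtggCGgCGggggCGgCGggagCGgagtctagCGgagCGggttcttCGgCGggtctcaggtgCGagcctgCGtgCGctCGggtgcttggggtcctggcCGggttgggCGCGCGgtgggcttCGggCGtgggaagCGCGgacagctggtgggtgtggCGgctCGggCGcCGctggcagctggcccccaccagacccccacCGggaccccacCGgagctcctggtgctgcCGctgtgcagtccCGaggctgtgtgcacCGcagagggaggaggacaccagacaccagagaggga
Pigs: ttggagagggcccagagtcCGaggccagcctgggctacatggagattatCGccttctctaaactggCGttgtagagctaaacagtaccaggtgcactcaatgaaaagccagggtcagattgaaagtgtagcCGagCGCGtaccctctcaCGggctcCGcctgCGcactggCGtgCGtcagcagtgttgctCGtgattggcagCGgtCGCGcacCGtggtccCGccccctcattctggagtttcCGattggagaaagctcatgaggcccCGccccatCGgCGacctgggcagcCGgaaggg
Ciart: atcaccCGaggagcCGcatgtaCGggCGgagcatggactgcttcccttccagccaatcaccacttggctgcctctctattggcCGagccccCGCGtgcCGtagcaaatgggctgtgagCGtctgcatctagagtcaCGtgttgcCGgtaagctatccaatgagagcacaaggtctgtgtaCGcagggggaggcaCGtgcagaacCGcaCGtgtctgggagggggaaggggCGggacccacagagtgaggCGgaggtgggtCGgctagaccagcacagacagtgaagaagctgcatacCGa
Gm14963: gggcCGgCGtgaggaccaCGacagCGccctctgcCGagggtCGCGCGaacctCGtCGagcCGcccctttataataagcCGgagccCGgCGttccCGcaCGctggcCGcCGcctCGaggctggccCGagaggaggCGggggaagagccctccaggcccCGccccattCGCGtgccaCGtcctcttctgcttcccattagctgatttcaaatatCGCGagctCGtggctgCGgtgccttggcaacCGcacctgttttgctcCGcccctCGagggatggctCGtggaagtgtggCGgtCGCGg
Gm52920: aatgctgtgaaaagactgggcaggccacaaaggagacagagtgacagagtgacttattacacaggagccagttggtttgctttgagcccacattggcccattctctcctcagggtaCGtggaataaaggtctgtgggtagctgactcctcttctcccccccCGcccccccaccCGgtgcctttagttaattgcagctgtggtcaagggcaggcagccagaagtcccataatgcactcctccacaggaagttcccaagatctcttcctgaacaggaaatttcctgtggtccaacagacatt

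The first 4 windows held 30, 22, 19 and 36 CG pairs. Of the 23 windows, 21 lay in regions with an H3K9ac peak in all 8 libraries and an H3K4me3 peak in all 4 FGR libraries, and these held 10 to 49 CG pairs. The other two, of Gm39130 and Gm52920, held 4 and 3 and had no H3K9ac or H3K4me3 peak in any library. The median window inside the regions had a GC content of 63.0% and 25 CG pairs. Windows inside regions called in all 8 libraries, 9136 of them, had 61.3% and 22, and all 32619 RefSeq windows 53% and 7. The letters GGGCGG, the GC box bound by Sp-family factors, occurred on either strand in 20 of the 23 windows (87.0%), against 63.2% inside regions called in all 8 and 35.9% of all windows. CCAAT occurred in 30.4%, 36.3% and 37.6%, and the ETS-type letters CCGGAAG in 26.1%, 21.0% and 8.92%. The PU.1-type letters GAGGAAG, which share GGAAG with the former, occurred in 8.70%, 14.9% and 13.4%. The AP-1-type letters TGACTCA and the E-box CACGTG each occurred in 1 window. A match of letters is a description of the sequence only.

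The regions called only in Ctrl were of moderate width and mostly lay inside genes. Their median width was 824.5 bp, with quartiles of 660 and 1062.75 bp and a range of 321 to 2954 bp. Regions called in all 8 libraries had a median of 1982 bp, and those called only in FGR 397 bp. Gene ends, the start or the end of 21631 protein-coding genes since the gene table gives no strand, lay within 1 kb of 145 regions (14.8%, Wilson 95% interval 12.7 to 17.2). The share was 17.3% over all merged regions, 36.1% for regions called in all 8 and 11.2% for regions called only in FGR. A further 606 regions (62.0%) lay inside a gene body away from its ends and 227 (23.2%) between genes, while over all regions 55.7% lay in a gene body. The median distance to the nearest gene end was 12.7 kb, and 166 regions (17.0%) were over 50 kb from one. All intervals cover counting error only.

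**Figure D1:**
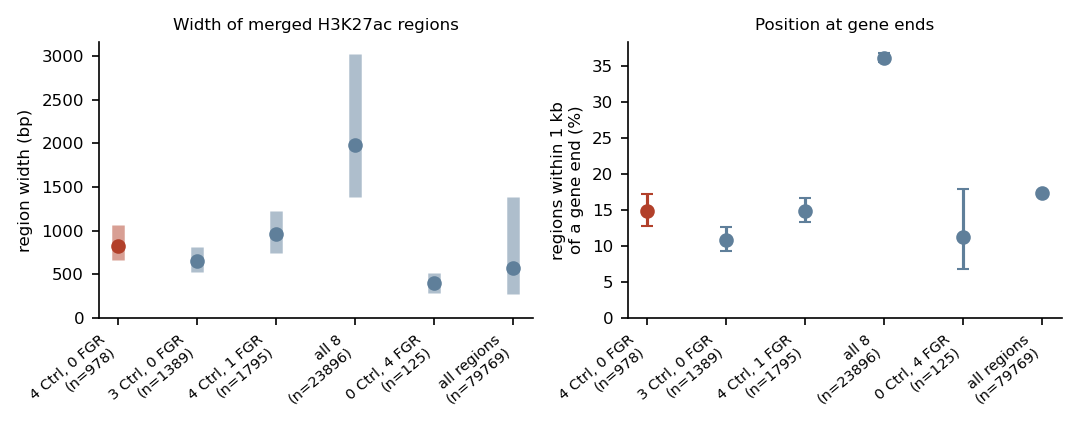
Left, width of merged H3K27ac regions in bp by the libraries that called them (points are medians, bars run from the first to the third quartile). Right, percent of each set within 1 kb of a gene end with Wilson 95% intervals. Regions called only in Ctrl have a median of 824.5 bp and 14.8% at gene ends, regions called in all 8 libraries 1982 bp and 36.1%.

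Many of the regions had an FGR peak close by. The nearest peak of any FGR library lay within 1 kb of 367 regions (37.5%), at a median distance of 1.64 kb over all 978. For the 1389 regions with 3 Ctrl peaks and no FGR peak the share was 43.0% and the median distance 1.41 kb. A region called in all 8 libraries lay within 5 kb of 462 (47.2%), close to the 43.7% over all merged regions. Another of the 978 lay within 10 kb of 70 regions (7.16%), and within 10 kb of 4.59% of all merged regions. By chromosome, 3.03% of the 32247 regions called in all 4 Ctrl libraries were called in no FGR library. Chromosome 11 had the most, 108 of 2516 or 4.29% (Wilson interval 3.57 to 5.16), and chromosome 13 the lowest share, 2.12% (1.5 to 2.99).

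Within their own lists these were weak peaks. The fold enrichments, which are the authors' and are used only within 1 list, had medians of 4.32, 4.27, 4.13 and 4.08 in Ctrl replicates 1 to 4, with median summit pileups of 15, 16, 14 and 14 fragments. Peaks were ranked within each list by −log10 p, not by fold. Between 88.3% and 92.2% of the regions ranked below the median peak of a list. Averaged over the 4 lists, the rank lay below the 50th percentile in 923 regions (94.4%). Regions called in all 8 libraries had Ctrl folds of 9.33 to 9.60 and pileups of 36 to 41. The share of regions called in all 4 Ctrl libraries that no FGR library called was 23.7% below the 20th percentile, 14.2% from the 20th to the 30th, 7.06% from the 30th to the 40th and 2.92% from the 40th to the 50th. Above the 50th percentile it was 0.251%, or 55 regions.

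The neighbouring patterns of calls lay close on either side. The 1795 regions with 4 Ctrl peaks and 1 FGR peak had Ctrl folds of 4.37 to 4.53 and a median width of 955 bp. The 1389 regions with 3 Ctrl peaks and no FGR peak had folds of 3.76 to 3.89 and 647 bp. Gene ends lay within 1 kb of 14.9% of the former and 10.8% of the latter. In the regions with 1 FGR peak, that peak came from FGR replicate 2 at 959 regions, replicate 3 at 454, replicate 1 at 329 and replicate 4 at 53. Without FGR replicate 2 the number of Ctrl-only regions was 1949, without Ctrl replicate 2 it was 1510 and without Ctrl replicate 3 it was 1615.

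Membership moved with the background. When the pileup and background of every Ctrl peak were scaled down to the FGR background and the Poisson p-value was computed again, 105 of the 978 regions (10.7%) kept a peak in all 4 Ctrl lists, against 90.0% of the regions called in all 8. Each Ctrl library alone kept 32.2% to 44.1% of the regions, while 64.4% to 69.1% of all peaks in a Ctrl list were kept. The regions called in all 8 held stronger Ctrl peaks, as given above. Whether the shares kept differ between peaks of like strength was not tested. The 105 that were kept lay within 1 kb of a gene end in 43 cases (41.0%), and the 873 others in 102 (11.7%). H3K9ac was called in all 4 FGR libraries at 57 of the 105 (54.3%) and at 119 of the others (13.6%). Their mean rank lay between the 31.7th and 72.8th percentile, with a median of 49.9.

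**Figure D2:**
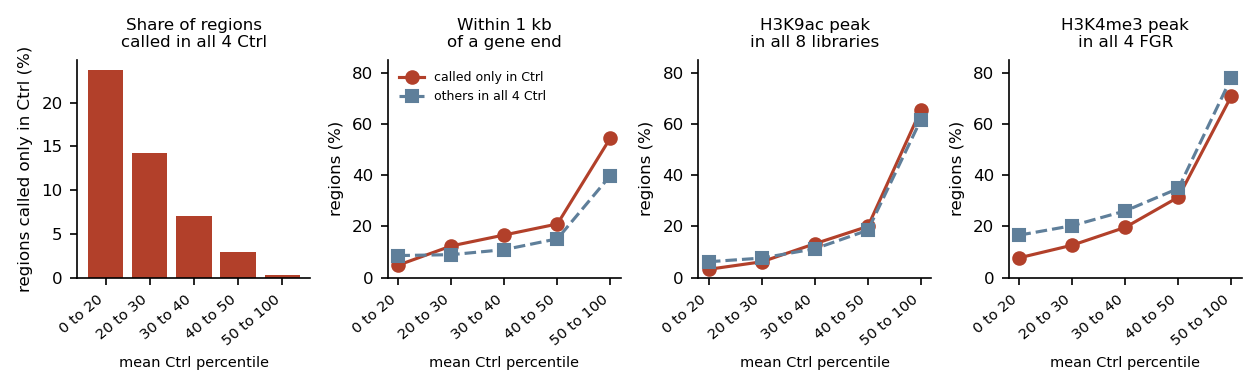
Regions called in all 4 Ctrl H3K27ac libraries, grouped by their mean percentile of −log10 p within the Ctrl lists (horizontal axes). Bars give the percent called in no FGR library, which falls from 23.7% to 0.251%. Points give the percent at a gene end, with H3K9ac in all 8 libraries and with H3K4me3 in all 4 FGR libraries, for regions called only in Ctrl (circles) and all others (squares).

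H3K9ac, which the choice of regions did not use, was called at a somewhat smaller share of them than of all regions. In Ctrl replicates 1 to 4, 35.1%, 35.6%, 36.3% and 32.2% of the 978 regions had an H3K9ac peak, and in FGR replicates 1 to 4 the libraries labelled H3K9ac had 26.9%, 29.3%, 25.4% and 22.3%. The groups did not overlap. Over all merged regions the ranges were 39.5% to 42.1% in Ctrl and 27.7% to 34.2% in FGR, and these did not overlap either. Regions with H3K27ac peaks in 4 Ctrl and 1 FGR library had H3K9ac at 40.8% to 47.5% in Ctrl and 22.9% to 32.1% in FGR. Regions with H3K27ac called in all 8 had 89.9% to 91.3% and 62.9% to 70.9%. The number of H3K9ac peaks was 42197 to 47707 for Ctrl libraries and 54547 to 86834 for FGR libraries.

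An H3K9ac peak in all 8 libraries was present at 117 of the 978 regions (12%, against 20.4% of all merged regions), and 358 had none (36.6%, against 41.0%). The full loss of H3K9ac calls, all 4 Ctrl and no FGR library, was seen at 39 regions (3.99%), where 5.16% of all merged regions showed it. The opposite pattern was seen at 18 (1.84%, against 1.06%). H3K9ac or H3K4me3 was called in at least 1 FGR library at 483 regions (49.4%, against 52.0% of all merged regions). Neither mark was called in any library at 311 (31.8%, against 38.4%). That share was 21.1% for regions with H3K27ac peaks in 4 Ctrl and 1 FGR library, and 1.37% for those called in all 8.

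Position divided the regions. Of the 145 within 1 kb of a gene end, 69.7 ± 1.69% had H3K9ac in Ctrl and 70.5 ± 2.48% in FGR (SD over 4 libraries each), and the ranges overlapped. Of the 833 farther away, 28.7 ± 1.89% had it in Ctrl and 18.2 ± 3.09% in FGR, without overlap. The regions called in all 8 libraries also had a smaller gap at gene ends, from 98.2 ± 0.0974% to 94.3 ± 0.782%, than farther away, from 86.5 ± 0.898% to 52.4 ± 4.98%. Whether these gaps differ was not tested.

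**Figure D3:**
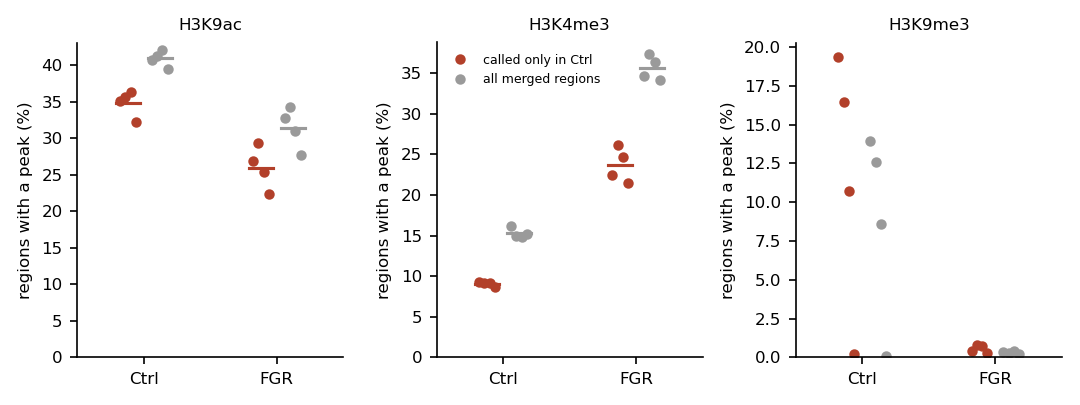
Percent of regions with a peak of H3K9ac, H3K4me3 or H3K9me3 in each library (points), for the 978 regions called only in Ctrl and for all 79769 merged regions, with means as lines for the first 2 marks. The H3K4me3 panel runs from 8.69% to 9.30% in Ctrl to 21.5% to 26.2% in FGR for the 978 regions, and the low Ctrl H3K9me3 point is replicate 4, a list of another type.

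The covered length of each mark was tested with limma across all merged regions with a peak in at least 2 of the 8 libraries. For H3K9ac, 477 of the 978 regions entered the test and 501 had too few peaks. At an adjusted p under 0.05, 97 of the 978 were lower in FGR and 45 higher, while 44.6% of all 39243 tested regions were lower and 6.01% higher. As a share of all regions, tested or not, this is 9.92% lower against 21.9%, and 4.60% higher against 2.96%. The median difference was -96.8 bp over the 477 and -234 bp over all tested regions.

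Scaling turned the balance. After quantile normalization between libraries, which moved the median of all tested regions to 29.8 bp, 43 regions were lower and 174 higher, and 8 of the 97 were then called higher. Values normalized in this way are rescaled and are no longer lengths covered within a region. With the FGR labels exchanged 59 were lower and 29 higher. In the fit without FGR replicate 1, 63 were lower, and without FGR replicate 4, 62. With the replicate number as a block 63 were lower and 42 higher.

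Of the 97 regions with less H3K9ac, 61 lay inside genes, 24 between genes and 12 within 1 kb of a gene end. At Ppp1r16a, which encodes a regulatory subunit of protein phosphatase, the region at chr15:76684530-76685472 had 626, 552, 566 and 571 bp of H3K9ac in Ctrl and 0 in each FGR library (limma adjusted p = 5.43e-06). Near Ahnak, the gene of a large scaffold protein, the region at chr19:8984647-8985399 had 715, 753, 752 and 589 bp and 0 in FGR (adjusted p = 1.46e-05). Neither had an H3K4me3 peak in FGR, and both were also lower after quantile normalization and with the labels exchanged. The nearest FGR H3K27ac peak lay 63 bp from the region near Ahnak and 11868 bp from that at Ppp1r16a.

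At 4 other regions the loss of H3K9ac went with a gain of H3K4me3. In Casc1, at chr6:145187286-145187770, H3K9ac covered 485, 464, 485 and 439 bp in Ctrl and 0 in FGR, and H3K4me3 covered 0 bp in Ctrl and all 485 bp in every FGR library (adjusted p = 8.88e-06 and 3.99e-07). The same pattern was seen between genes at chr14:64501416-64502293, with Msra, a methionine sulfoxide reductase gene, the nearest, and at chr11:21549900-21550342, nearest to the malate dehydrogenase gene Mdh1. Their H3K9ac fell by 805 ± 48.5 bp and 420 ± 25.2 bp (SE; adjusted p = 1.49e-05 and 1.47e-05). H3K4me3 was 742 ± 37.0 bp and 358 ± 23.2 bp higher (adjusted p = 3.38e-06 and 1.1e-05). The fourth region, near Fam3c at chr6:22493774-22494172, lost 367 bp of H3K9ac, and its H3K4me3 difference of 225 bp rested on a Ctrl group with 1 peak (adjusted p = 0.0471). The H3K4me3 call near Mdh1 was not kept after quantile normalization (2.47 bp, adjusted p = 0.932), nor was that near Fam3c. With the FGR labels exchanged none of the 4 kept its H3K9ac call, with differences of -63.0 to 16.8 bp and adjusted p of 0.0963 to 0.528, and all 4 had too few H3K4me3 peaks for the test. In all, 18 regions (1.84%) had H3K9ac only in the 4 Ctrl libraries together with H3K4me3 in an FGR library, while 4.12% of all merged regions did.

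Of the 45 regions with more H3K9ac, 13 (28.9%) lay within 1 kb of a gene end, among them those at the next 5 genes and at Arhgap45. The region shared by Sema4b, a semaphorin gene, and Cib1 (chr7:80225119-80226028) had 0 bp in Ctrl and 910, 736, 873 and 910 bp in FGR (adjusted p = 7.74e-06). At Ttyh3, a gene of the tweety family of anion channels, the region at chr5:140621194-140622204 went from 0 bp to 836, 1011, 921 and 743 bp (adjusted p = 2.08e-05). Zfp628 and Nat14 shared a region at chr7:4920931-4921775 with 0 bp in Ctrl and 686, 845, 702 and 745 bp in FGR (adjusted p = 9.06e-06).

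Arhgap45, a GTPase activating protein, had 0 bp against 434 to 535 bp in its region at chr10:80029690-80030929 (adjusted p = 1.72e-05). On the X chromosome, 18.6 kb from Mid1, the region at chrX:170009409-170009834 had 0 bp in Ctrl and 426 bp, its whole width, in each FGR library (adjusted p = 9.05e-06). It had high H3K27ac pileups of 45, 51, 53 and 44 fragments but folds of only 2.72 to 3.32, which means a high local background. These 5 regions kept their H3K9ac call in all 14 alternatives under the deposited labels. With the FGR labels exchanged the call at Zfp628 and Nat14 was kept (adjusted p = 0.00068), while those at Sema4b and Cib1, Ttyh3, Arhgap45 and near Mid1 were not, since no library labelled H3K4me3 had a peak there.

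H3K4me3 was rarer, and it was called more often in FGR. A peak was present at 9.30%, 9.20%, 9.10% and 8.69% of the regions in Ctrl replicates 1 to 4, and at 22.5%, 26.2%, 24.6% and 21.5% in the FGR libraries labelled H3K4me3. Over all merged regions it was 14.8% to 16.2% and 34.1% to 37.3%, and neither pair of groups overlapped. Ctrl lists of this mark had 16551 to 18344 peaks, and FGR lists 43052 to 48922. At gene ends the share went from 40.7 ± 0.975% to 69.3 ± 0.890%, and farther away from 3.57 ± 0.409% to 15.8 ± 2.45% (SD, 4 libraries each). Of the 978 regions 673 (68.8%) had no H3K4me3 peak in any library, as had 58.8% of all merged regions.

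By limma, 163 of the 978 regions were covered more by H3K4me3 in FGR and 2 less, with 243 in the test, while 84.1% of 29282 tested regions were higher and 0.0683% lower. This is 16.7% of the 978 and 30.9% of all merged regions. The pattern of 4 FGR peaks and no Ctrl peak was seen at 60 regions (6.13%), with 11.4% over all regions. The direction did not hold under scaling: after quantile normalization, which moved the median of all tested regions from 474 to -51.6 bp, 16 regions were higher and 78 lower. With lists of equal length 65 were higher and 6 lower, and with the FGR labels exchanged 131 and 3.

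Among the H3K4me3 gains with the smallest adjusted p were regions at gene ends with no H3K4me3 peak in Ctrl. At Adrb1, a beta adrenergic receptor gene, the region at chr19:56725053-56725843 had 0 bp in each Ctrl library and 791 bp, its whole width, in each FGR library (adjusted p = 7.13e-08). It was also among the weakest H3K27ac calls, with folds of 3.32, 3.16, 2.65 and 3.10, and an FGR H3K27ac peak lay 144 bp away. Cenpb, which encodes a centromere protein (chr2:131179245-131179855), had 0 bp and 611, 611, 610 and 600 bp (adjusted p = 1.7e-07).

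Pin4, a peptidyl-prolyl isomerase gene (chrX:102119457-102120052), had 0 bp and 565 to 596 bp (adjusted p = 2.96e-07). Lage3, of the KEOPS complex that modifies transfer RNA (chrX:74353097-74353643), had 0 bp and 484 to 493 bp (adjusted p = 3.97e-07). H3K9ac covered both in all 8 libraries, with 457 to 575 bp at Pin4 and 316 to 460 bp at Lage3. Adrb1, Cenpb, Pin4 and Lage3 stayed higher in H3K4me3 in all 14 alternatives under the deposited labels. With the FGR labels exchanged Cenpb, Pin4 and Lage3 stayed higher, while Adrb1 had no H3K4me3 peak and was 662 bp higher in H3K9ac (adjusted p = 0.00292).

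**Figure D4:**
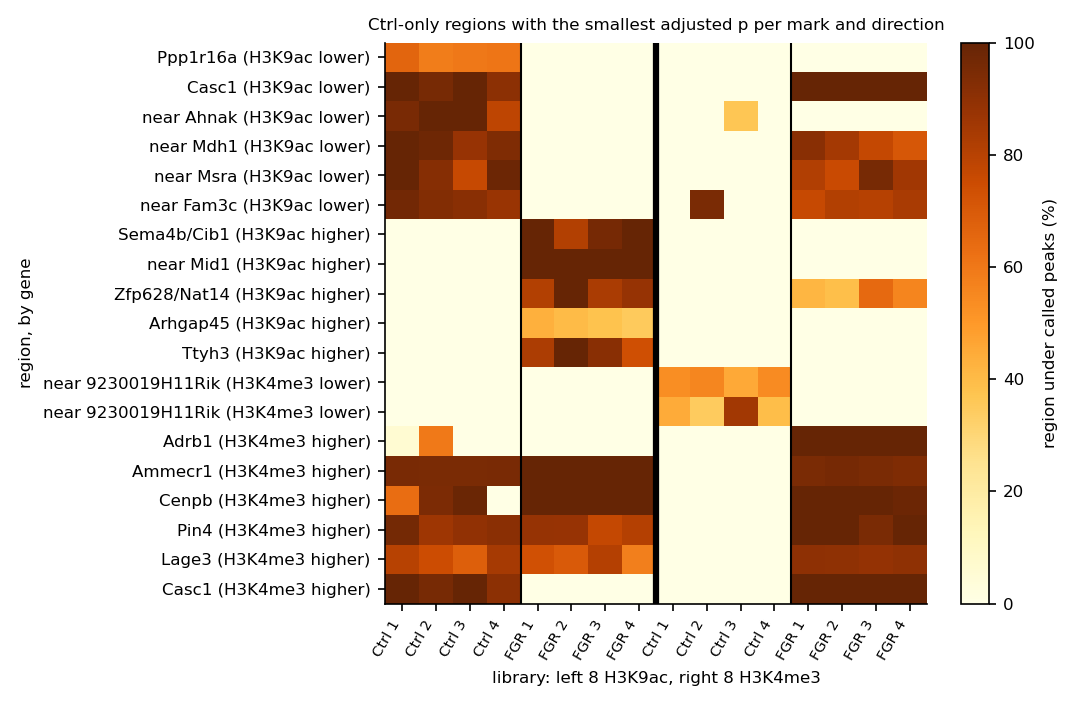
Percent of each region under called H3K9ac peaks (left 8 columns) and H3K4me3 peaks (right 8 columns) in each library, for the regions with the smallest limma adjusted p per mark and direction. Casc1 and the regions near Mdh1, Msra and Fam3c are filled for H3K9ac in Ctrl and for H3K4me3 in FGR.

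Both regions with less H3K4me3 in FGR lay near each other on chromosome 10, between genes. The region at chr10:3109475-3110440 had 514, 537, 436 and 521 bp in Ctrl and 0 in FGR (adjusted p = 3.56e-06), and the one at chr10:3114459-3115266 had 361, 280, 687 and 318 bp and 0 (adjusted p = 0.00373). Only 9 of all merged regions (0.0113%) had H3K4me3 in 4 Ctrl and no FGR library. Their H3K27ac folds were 1.73 to 2.46 on pileups of 48 to 114 fragments. H3K9me3 covered each of them fully in Ctrl replicates 1 to 3, and 444 to 874 bp of the first in the 4 FGR libraries. They differ in this from most of the 978.

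H3K9me3 peaks were called at 19.3%, 16.5% and 10.7% of the 978 regions in the broad lists of Ctrl replicates 1 to 3, which held 340305 to 482313 peaks, and at 0.409% to 0.818% in those of FGR, which held 15195 to 22495. Over all merged regions the Ctrl shares were 14.0%, 12.6% and 8.58%. Replicate 4, a narrow list in both groups, gave 0.204% and 0.307%. The lowest −log10 p in the broad lists was 1.001 to 1.004 in Ctrl and 3.42 to 3.64 in the FGR libraries, and no comparison of this mark was made.

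The 12 regions with the highest mean rank in the Ctrl lists had folds of 5.69 to 10.6 and pileups of 22 to 47 fragments. All 12 had an H3K9ac peak in all 8 libraries and an H3K4me3 peak in all 4 FGR libraries, and 10 lay at a gene end. All 12 also kept their peaks in the 4 Ctrl lists after scaling to the FGR background. They lay at or near H2ac12, a histone gene, Ehd1, an endocytic recycling ATPase, Xkr6, Slc37a3, Dlg4, which encodes a postsynaptic scaffold, Rpa2, a replication protein subunit, Uxs1, Abr, Aldoc and Pigs, Ammecr1, Ciart and Fkbp5. Among the 55 regions above the 50th percentile, 30 (54.5%) lay at gene ends and 36 (65.5%) had H3K9ac in all 8 libraries, against 39.9% and 61.7% of the other 21872 regions of that strength.

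At Ehd1, on the region chr19:6275560-6277025 whose sequence is shown above for Gm14963, the H3K27ac folds were 10.6, 7.97, 8.52 and 6.90 in Ctrl, and the nearest FGR peak lay 1.37 kb away. H3K9ac covered 789, 792, 838 and 810 bp in Ctrl and 774, 784, 824 and 774 bp in FGR, and the ranges overlapped (adjusted p = 0.594, difference -18.3 ± 27.3 bp, SE). H3K4me3 covered 0 bp in Ctrl and 642, 761, 761 and 763 bp in FGR (adjusted p = 1.74e-06). So this promoter had no H3K27ac call in FGR while the H3K9ac calls were of like length and H3K4me3 was called only there.

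Xkr6 (chr14:63605955-63606960) had folds of 8.09, 9.33, 9.74 and 8.45. Its H3K9ac was 282, 354, 779 and 333 bp in Ctrl and 979, 955, 968 and 979 bp in FGR (adjusted p = 0.0048), and its H3K4me3 went from 0 bp to 628, 789, 760 and 765 bp (adjusted p = 3.38e-06). With the labels exchanged the H3K9ac difference did not pass (adjusted p = 0.0779). Ammecr1, on the X chromosome (chrX:142966003-142966751), had no FGR H3K27ac peak within 137 kb. It carried 710 to 713 bp of H3K9ac in Ctrl and 749 bp in each FGR library, and its H3K4me3 went from 0 bp to 701 to 717 bp (adjusted p = 1.03e-07).

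At Slc37a3, a gene of the sugar phosphate transporter family (chr6:39377157-39377751), the folds were 10.4, 9.06, 6.79 and 9.62. Both marks covered it in all 8 libraries, H3K9ac with 543 to 595 bp in the Ctrl libraries and 564 to 595 bp in those of FGR, and H3K4me3 with 358 to 595 bp and 595 bp (adjusted p = 0.471 and 0.165). Fkbp5, a co-chaperone gene induced by glucocorticoids (chr17:28485340-28486145), had folds of 7.65, 9.10, 7.24 and 7.12, and an FGR H3K27ac peak lay 265 bp away. Its H3K9ac was 714 to 798 bp in the Ctrl libraries and 786 to 806 bp in those of FGR (adjusted p = 0.225), and its H3K4me3 0, 0, 0 and 664 bp against 653 to 749 bp (adjusted p = 0.0183). Fkbp5 held a second region of the set, 2 of its 9 regions called in all 4 Ctrl libraries.

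Ciart, a repressor of the circadian clock (chr3:95881519-95883261), had folds of 5.69 to 6.21 on pileups of 33 to 44. Its H3K4me3 was 483, 740, 0 and 395 bp in Ctrl, against 1375 to 1469 bp in FGR (adjusted p = 0.000514), and H3K9ac was 1252 to 1698 bp and 1299 to 1493 bp (adjusted p = 0.539). The region shared by Aldoc, aldolase C, and Pigs, a subunit of the GPI transamidase (chr11:78327966-78328998), had less H3K9ac in FGR, 858 to 936 bp against 1014 to 1033 bp (adjusted p = 0.00453). After quantile normalization that difference turned to 321 bp higher (adjusted p = 0.000595), and with the FGR labels exchanged it was -17.0 bp (adjusted p = 0.664). Of the 12, 9 were higher in H3K4me3, 2 were higher in H3K9ac (Xkr6 and Abr) and 1 was lower, and the H3K4me3 calls of Abr, Fkbp5, Uxs1, Ciart, Aldoc with Pigs and the region near H2ac12 were lost or turned after quantile normalization. With the FGR labels exchanged the H3K4me3 calls of Aldoc with Pigs (adjusted p = 0.814) and of the region near H2ac12 (adjusted p = 0.177) were not kept. The H3K9ac call of Abr was not kept with the replicate number as a block. After quantile normalization H3K9ac was called higher at all 12, also at Slc37a3, Fkbp5 and Ammecr1 (limma adjusted p = 0.000255, 0.000188 and 0.000191).

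**Figure D5:**
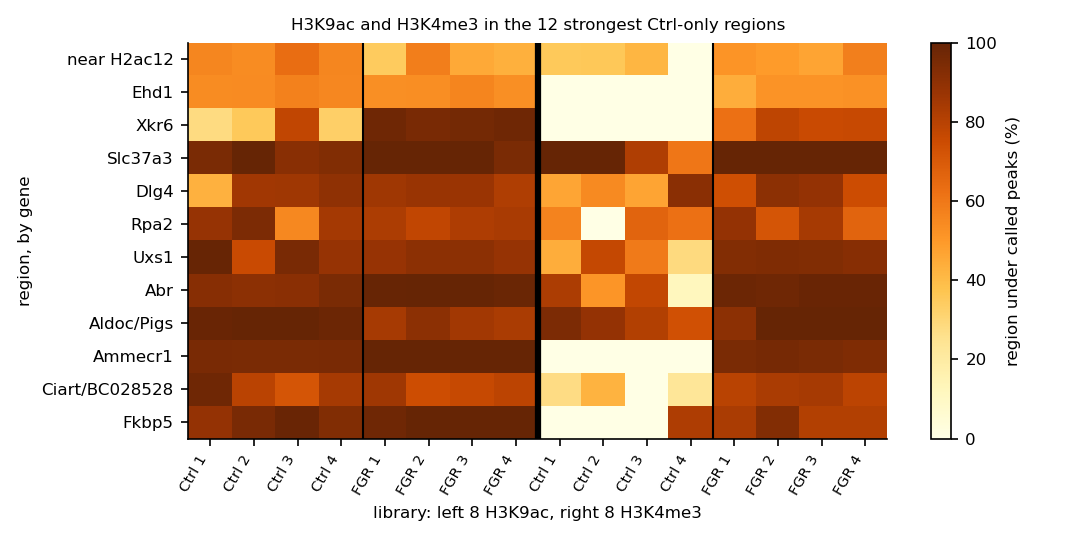
Percent of each of the 12 strongest regions under called H3K9ac peaks (left 8 columns) and H3K4me3 peaks (right 8 columns) in each library, ordered by rank of H3K27ac in Ctrl. All have H3K9ac in all 8 libraries. The regions at Ehd1, Xkr6 and Ammecr1 have H3K4me3 in no Ctrl library.

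Genes were assigned where a region lay in a gene or within 2.5 kb of it. Of the 978 regions 779 (79.7%) had a gene by this rule, which gave 728 of 21631 protein-coding genes (3.37%). They were long genes, with a median span of 57.1 kb against 17.3 kb for all genes. A region called in all 8 libraries was present at 626 of the 728 (86.0%), so most of them also held H3K27ac calls in FGR. At 78 genes 2 or more of the regions were found and 3 or more at 16.

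Ldlrad4, an inhibitor of TGF-beta signalling that spans 328 kb on chromosome 18, held 7 of its 41 regions called in all 4 Ctrl libraries, and 21 of the 41 were called in all 8. Among them was 1 of the 8 widest of the set, at chr18:68029983-68032284, with folds of 4.34, 6.96, 5.28 and 3.50. It had no H3K9ac peak, and H3K9me3 covered 1055, 313 and 886 bp in Ctrl replicates 1 to 3. Tgfbr1, the receptor kinase of TGF-beta, held 4 of 11 within 61.7 kb, and 3 of the 11 were called in all 8. Its widest, at chr4:47394289-47396659, had folds of 3.76, 4.27, 4.72 and 4.08 and no peak of any other mark.

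Another Tgfbr1 region, at chr4:47367822-47369243, had folds of 5.78, 5.60, 5.31 and 4.37. It carried 632, 268, 0 and 721 bp of H3K9ac in Ctrl and 254, 0, 0 and 0 bp in FGR, which overlap (adjusted p = 0.127). Its H3K4me3 was 0 bp in Ctrl and 263, 0, 253 and 205 bp in FGR (adjusted p = 0.0242), a call kept in 3 of 12 alternatives and not testable with the FGR labels exchanged. Qk, an RNA-binding protein, held 4 of 15 with 3 called in all 8, Ankrd44 4 of 20 with 7, and Dip2b 4 of 24 with 12. A Dip2b region, at chr15:100142688-100143936, lost 417 bp of H3K9ac (adjusted p = 0.00906), a call that was not kept after quantile normalization. Rab31, a small GTPase of vesicle transport, held 3 of 13, and the zinc finger factor Rreb1 3 of 25.

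By lists of genes, 3 of 28 homeostatic microglia genes held a region of the set, against 3.37% of all genes, and all 28 held at least 1 region called in all 4 Ctrl libraries. They were Tgfbr1 with 4 regions, Sparc, a matricellular protein, with 2 and Itgam, an integrin chain of macrophages, with 1. The Itgam region, at chr7:128113834-128116194, was 2361 bp wide with folds of 6.65, 5.39, 4.62 and 5.18. A peak of an FGR library lay 92 bp away. Of 22 transcription factors of microglia, Mef2c and Smad3 held 1 region each, out of 23 and 16 regions called in all 4 Ctrl libraries. The Mef2c region (chr13:83625905-83626934) had folds of 3.25 to 4.05 and no peak of the other 3 marks.

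Of 28 genes of disease-associated microglia only Itgax held one, and of 30 inflammatory genes Nlrp3, the sensor of an inflammasome. The Nlrp3 region (chr11:59558198-59560116) had folds of 4.13, 3.54, 4.84 and 3.81 and lay 177 bp from a region called in all 8. Of 25 complement and phagocytosis genes Cd47 and Itgam held one, and of 19 antigen presentation genes Cd86, a costimulatory receptor, and H2-DMa. The interferon response list had 0 of 20 and the housekeeping list 0 of 15. These lists also had many regions called in all 8, for example 54 of the 79 Ctrl regions of the homeostatic list.

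Lists of other cell types of the hippocampus gave 2 of 12 astrocyte genes, Glul and Aldoc, and 0 of 16 neuronal, 0 of 13 oligodendrocyte, 0 of 12 endothelial and mural, 0 of 12 border-associated macrophage and 0 of 12 lymphocyte and neutrophil genes. Aldoc was counted by the distance rule only, since its region lay outside that gene and overlapped an end of Pigs. The Glul region (chr1:153906125-153906772) had folds of 4.34 to 5.10, no peak of the other 3 marks, and lay 53 bp from a region called in all 8. In bulk libraries fewer cells of a type and less signal per cell cannot be told apart.

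The widest regions were not the strongest. The widest, 2954 bp at Dcbld2 and St3gal6 (chr16:58466922-58469875), had folds of 4.62, 4.27, 4.08 and 4.96 and was covered for 1316 to 2556 bp. It had 333 bp of H3K9ac in 1 Ctrl library and nothing else. At Efhd2, which encodes a calcium-binding protein (chr4:141861290-141864045), H3K9ac was 0, 0, 297 and 0 bp in Ctrl and 866, 1578, 1059 and 777 bp in FGR (adjusted p = 0.00272). The call was not kept with lists of equal length or with the FGR labels exchanged (18 bp, adjusted p = 0.894). An FGR H3K27ac peak lay 60 bp from the Efhd2 region. At Stat3, the cytokine-activated transcription factor (chr11:100934190-100936515), H3K4me3 was 0 bp in Ctrl, against 471 to 798 bp in FGR (adjusted p = 0.000152), not kept after quantile normalization or with the FGR labels exchanged (adjusted p = 0.0604 and 0.0696). Wdr18 (chr10:79958329-79960689) had H3K9ac in all 8 libraries, with 578 to 844 bp in the Ctrl libraries and 881 to 1463 bp in those of FGR (adjusted p = 0.108). Its H3K4me3 was 440, 417, 0 and 0 bp in Ctrl, against 792 to 835 bp in FGR (adjusted p = 0.00222), a difference that turned to -71.9 bp after quantile normalization. The region of Rab11b (chr17:33756312-33758335) had 474, 0, 292 and 653 bp of H3K9ac in Ctrl, against 0 to 7 bp in FGR (adjusted p = 0.0552). It had no H3K4me3 peak in any library.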

How the data were processed

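Each library came as 1 deposited peak list in MACS2 columns. The submitters' processing notes name the mm10 build and MACS2 2.2.7.1, besides Trim Galore 0.6.5, DiffBind 3.12.0, SAMtools 1.3.1 and Bowtie2 2.4.5. The peak caller's options were not given in the sources used here. Each deposited peak carries a fold, the authors' ratio of signal to local background, −log10 p and −log10 q values deposited as such, and a score deposited by the authors that was not used. No read counts came with the lists.

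The pileup and background at each H3K27ac summit were solved from the deposited fold and −log10 p (within 0.1% for 100% of peaks). Peaks were merged across the 8 H3K27ac lists. Covered bp of H3K9ac and H3K4me3 per region were compared with limma 3.58.1 (R 4.3.3; lmFit, eBayes, Benjamini-Hochberg over all regions with a peak in at least 2 libraries, two-sided, threshold 0.05). The limma script was tested on simulated data, with changes set at regions with over 800 bp covered. For H3K9ac it found 20 of 100 changes of 400 bp and 64 of 100 of 800 bp, with 3 calls among 39043 unchanged regions. For H3K4me3 it found 19 and 41 of 100, with 8 calls among 29082. A difference without a call can therefore be a missed change. Everything else used Python 3.11.15 with pandas 2.3.3 and SciPy 1.17.1. Genes came from a RefSeq table of GRCm38.p6 without strand, so both gene ends were used, unlike the planned transcription starts.

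The members, gene lists and tests were chosen with earlier results of these data known. Named regions were the 12 highest by mean rank in the Ctrl lists, the 8 widest, up to 6 per mark and direction by adjusted p, up to 3 per gene list, and those of the 8 genes with most regions; 1 gene named by these rules is not reported here. Alternatives were stricter thresholds, equal list lengths, a common fold floor, another merging or overlap, quantile normalization, a 2 kb window, no filter, a replicate block and leaving out each library. Ctrl peaks scaled to the FGR background, and exchanged FGR labels, were added after seeing the data. The former are called depth-matched below, although the background need not reflect read depth alone.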

Additional observations from a re-analysis of the deposited data

Results flagged for a closer look

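In groups of 4 libraries, values were looked for whose gap to the nearest of the others was above Dixon's 95% critical share of the group's range. Of 82 groups that varied, 11 held such a value. Chance flags about 1 in 20 groups of normally distributed values. Covered lengths are bounded by 0 and the region width and often tie there, so this rate need not apply to them. At Cenpb 1 FGR library had 600 bp of H3K4me3, just below the others, and at Pin4 565 bp. At Rpa2 1 Ctrl library had 0 bp of H3K4me3, as had 1 at the region near H2ac12. At Fkbp5 1 Ctrl library had 664 bp of H3K4me3 where the others had none, and 1 FGR library had 786 bp of H3K9ac. At Slc37a3 1 FGR library had 564 bp of H3K9ac, and at Dlg4 1 Ctrl library had 471 bp. At Aldoc and Pigs 1 FGR library had 936 bp of H3K4me3. At Xkr6 1 Ctrl library had 779 bp of H3K9ac, above the others. At Ehd1 1 FGR library had 642 bp of H3K4me3, below the others.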

How the results depend on the processing

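The number of regions called only in Ctrl, 978, moved with the settings: it was 2617 with lists of equal length, 281 with a common fold floor, 416 when 50% of a region had to be covered in Ctrl, 106 with depth-matched Ctrl peaks and 1033 to 1949 with a library left out, a looser rule. A stricter q-value and merging over 500 bp stayed within 1.5 times. The median width of 824.5 bp became 950, 936, 676 and 871.5 bp in the first 4 of these settings, 879.5 bp with the stricter q-value, 861.5 bp with wider merging and 715 to 876 bp with a library left out. The share at gene ends, 14.8%, was 26.3% with the fold floor, 19.0% with 50% coverage, 40.6% with depth-matched peaks, 20.7% within 2.5 kb, and 12.8% to 15.0% with a library left out. The cause of these shifts was not tested.

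The share of the 978 regions with less H3K9ac, 9.92%, was 4.40% after quantile normalization, 6.34% without a filter, 6.03% with FGR labels exchanged and 6.34% to 8.69% with a library left out. The share with more, 4.60%, was 17.8% after quantile normalization, 2.97% with lists of equal length, 9.10% in a 2 kb window, 2.97% with labels exchanged and 3.68% to 4.81% with a library left out. For H3K4me3 the share with less, 0.204%, was 7.98% and 0.613% after quantile normalization and with equal lists. The share with more, 16.7%, was 1.64% and 6.65%. The other H3K4me3 settings stayed within 1.5 times. Without a filter most variances were 0, and limma warned that the fit is unreliable.

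The replicate block gave 6.44% of regions with less H3K9ac, and the other 3 shares stayed within 1.5 times. Same-numbered Ctrl and FGR libraries of a mark did not deviate together in covered length, with correlations of -0.0333 to 0.0346. What else same-numbered libraries share was not tested.

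Of 51 tests of single regions, 15 changed sign after quantile normalization and passed the threshold before or after it. In 747 alternative fits of these tests, 11 gave a call in the same direction where the main fit had none. Quantile-normalized values are rescaled and are not covered lengths. A difference can therefore exceed the width of the region, as at Slc37a3, which is 595 bp wide. The uncalled H3K4me3 difference at Rpa2 became -404 bp, also uncalled. For H3K9ac the differences became 464 bp at Uxs1, 514 bp at Ciart, 321 bp at Aldoc and Pigs, 255 bp near H2ac12 and 415 bp at Ehd1. For H3K4me3 they became -325 bp at Uxs1, -82.2 bp at Tgfbr1, -168 bp near Fam3c, -615 bp at Slc37a3, -71.9 bp at Wdr18, -576 bp at Dlg4, -314 bp at Abr, -702 bp at Aldoc and Pigs, -320 bp near H2ac12 and -68.4 bp at Fkbp5. With labels exchanged the H3K9ac difference at Casc1 became 16.8 bp. Without read counts, read depth is not known, and the solved background need not reflect it alone. A missing call does not show that a mark is absent.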
